A study of Homo sapiens with 40 samples.

Results

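The data described here are the 6 RNA-seq libraries of MDA-MB-231 cells transfected with siRNAs against SMAD2, SMAD3 and SMAD4 (siSMAD2/3/4, n = 3) or with a scrambled control siRNA (Csi, n = 3). They were taken by their sample labels and form 6 of the 24 RNA-seq libraries with count tables in a series of 40 samples. MDA-MB-231 is a human triple-negative breast cancer line with mesenchymal features, grown here as monolayers in medium with serum. Neither group received TGFβ, both went through transfection, and the genotype label of both is wild type. Because the 3 siRNAs were given together, the share of each SMAD in any change cannot be told apart, and all libraries come from 1 cell line. The labels call the replicates biological without naming separate transfections, so the p-values measure the spread between these samples.

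TGFβ ligands bind a pair of serine/threonine kinase receptors at the cell surface, and the type I receptor phosphorylates SMAD2 and SMAD3. The phosphorylated SMADs join SMAD4, enter the nucleus and, with partner factors, activate or repress target genes, among them genes for matrix, for proteases and for the feedback inhibitors of the pathway. In normal epithelium the pathway restrains growth, whereas in carcinoma cells it is known for driving epithelial-mesenchymal transition (EMT) and invasion. The comparison asked which genes differ after depletion of the 3 SMADs in cells given no added ligand. Effects of the siRNAs on other RNAs cannot be told apart from effects of SMAD loss. No other siRNA set against the SMADs and no rescue is among these libraries.

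The targeted genes were read first, since they check the labels. Levels are given in CPM, the share of a library's counts on a gene after TMM scaling. SMAD2 stood at 93.1, 91.8 and 89.0 CPM in the Csi libraries and at 23.4, 24.4 and 24.4 CPM in the siSMAD2/3/4 libraries, which is 26.4% of the Csi mean. SMAD4, the common partner, stood at 55.9, 54.6 and 57.0 CPM against 17.9, 15.9 and 16.8 CPM, or 30.2% of Csi. SMAD3 was the least depleted, with 278, 266 and 262 CPM against 172, 165 and 161 CPM, or 61.9% of Csi. All 3 genes separated the groups without overlap. Their log2 fold changes were -1.92 (SE 0.05, adjusted p = 2.7e-22 in edgeR's quasi-likelihood test), -1.72 (SE 0.06, adjusted p = 1.5e-19) and -0.69 (SE 0.04, adjusted p = 9.7e-15). Per kilobase of exon, SMAD3 had the highest level of the 3 in both groups, at 26.9 CPM per kilobase in Csi and 16.7 in siSMAD2/3/4, and SMAD2 the lowest, at 2.51 and 0.661.

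Total counts ran from 29479044 to 38406952 per library, and across genes, the log2 CPM of any pair of replicates had an r of at least 0.992, against 0.9871 to 0.9889 between groups. The first principal component, with 44.9% of the variance, separated the groups. Markers of the line fitted the label: VIM was at 968 to 1049 CPM and EGFR at 338 to 377 CPM, while the hormone receptors ESR1 and PGR were at no more than 0.239 and 0.219 CPM. Summed over 12 leukocyte markers the level was 15.1 to 17.1 CPM in Csi and 21.7 to 23.4 CPM in siSMAD2/3/4, with PTPRC at no more than 0.581 CPM, and over 12 markers of fibroblasts and endothelium it was 106.9 to 112.5 against 128.5 to 133.5 CPM. The label of all 6 libraries names 1 batch, yet the deposited tables of siSMAD2/3/4 replicates 1 and 2 carry the name of another flow cell, whereas replicate 3 shares the flow cell of the Csi libraries. The fits were therefore repeated with flow cell as a term and with replicate 3 as the lone siSMAD2/3/4 library. The latter assumes that replicate 3 varies like the Csi libraries. In both, the group difference is that of replicate 3 from Csi, because replicates 1 and 2 share no flow cell with Csi. They are thus not separate checks, and their list counts are given below for some lists only.

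Of 17696 genes tested, 6365 passed an adjusted p of 0.05: 2882 were higher (16.3%) and 3483 lower (19.7%) in siSMAD2/3/4. These shares are the background for the list counts below. The lists consist mainly of protein-coding genes, of which 18.7% were higher and 24.1% lower. Most changes were small. The median absolute log2 fold change of the called genes was 0.32, and 1703 of them (26.8%) exceeded 0.5. Differentially expressed genes (DEGs), which also needed an absolute log2 fold change above 1, numbered 173 higher (0.978% of genes tested) and 164 lower (0.927%). The higher and the lower DEGs were of different kinds. Those that fell were mostly protein-coding (124 of 164) with a median level of 5.54 CPM in Csi, and 83 of them had at least 5 CPM. Those that rose had a median level of 0.833 CPM in siSMAD2/3/4, only 15 reached 5 CPM, and 57 of the 173 were lncRNAs, against 22 lncRNAs among the lower DEGs. Tested against a log2 fold change of 1 itself, 22 genes were lower and 8 were higher. A fit with flow cell as a term gave 118 higher and 204 lower DEGs, and a filter of 10 counts in every library 75 and 118. With flow cell as a term all 173 and all 164 DEGs kept their direction, and 85 and 123 of them were still called. In a fit that also held the other MDA-MB-231 groups, 146 of 216 genes examined singly lost their call. Among them was the targeted SMAD3 (log2 -0.67, adjusted p = 0.1). SOX4, INSIG1, HSPA5, IFIT1, COL4A1, JUP, COL1A1 and CCND1 also lost their call (adjusted p = 0.068 to 0.66). With replicate 3 alone all DEGs kept their direction, which is the same contrast as with the flow cell term. Replicate 3 was also among the libraries that chose the DEGs, so a kept direction was close to assured in both fits.

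Other members of the SMAD family changed in both directions, with inhibitory SMADs higher and BMP-regulated SMADs lower. SMAD6, an inhibitor of receptor signaling, stood at 15.6, 15.4 and 12.8 CPM in Csi and at 24.6, 28.0 and 25.3 CPM in siSMAD2/3/4, without overlap, and rose 1.78-fold (log2 0.83, SE 0.08, adjusted p = 7e-10). SMAD1, a carrier of BMP signals, fell to 73.4% of Csi (adjusted p = 0.00081). SMAD5, its close relative, fell to 88.1% (adjusted p = 0.0014), but had an adjusted p of 0.093 with replicate 3 alone. SMAD7, the second inhibitor, was at 12.1 ± 0.825 against 14.4 ± 0.926 CPM (SD, n = 3 each), a log2 difference of 0.25 (adjusted p = 0.02) that was 0.17 with the flow cell term (adjusted p = 0.35), 0.20 without Csi replicate 2 (adjusted p = 0.11) and 0.21 without siSMAD2/3/4 replicate 2 (adjusted p = 0.11).

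Upstream of the SMADs, both signaling receptors fell while several ligands and latency proteins rose. Of 20 tested ligands, receptors and latent binding proteins, 7 were higher and 4 lower, with a median log2 fold change of -0.02 beside 0.004 over all genes. TGFBR2, the ligand-binding receptor, stood at 427, 448 and 438 CPM in Csi and at 337, 345 and 341 CPM in siSMAD2/3/4, 77.9% of Csi (adjusted p = 3.1e-09). TGFBR1, the receptor that phosphorylates SMADs, fell to 79.3% (adjusted p = 1.1e-07). LTBP3, which holds latent TGFβ in the matrix, went the other way from 178 ± 14.2 to 287 ± 20.6 CPM (log2 0.69, SE 0.05, adjusted p = 1.2e-12), while LTBP1 fell to 82.3% of Csi. Among ligands, TGFB2 rose 1.16-fold (adjusted p = 0.0001) and INHBB, a subunit of activins, 1.42-fold (adjusted p = 2.1e-07). TGFB1 rose 1.09-fold (log2 0.13, adjusted p = 0.019), a call that was not kept with the flow cell term (0.07), without Csi replicate 2 (0.12) or 3 (0.12), or without siSMAD2/3/4 replicate 2 (0.08).

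ID genes, which encode inhibitors of basic helix-loop-helix factors, are classical targets of BMP signaling. Of 16 tested genes of the ID and BMP list, 7 rose and 2 fell, with a median log2 fold change of 0.16, and with the flow cell term 4 were higher and 2 lower. ID1 stood at 73.4, 69.6 and 63.0 CPM in Csi against 94.0, 96.1 and 94.0 CPM in siSMAD2/3/4 and rose 1.38-fold (adjusted p = 5.8e-09). ID3 rose 1.44-fold (adjusted p = 2.7e-06). The ligand BMP4 rose from 369.6 ± 1.92 to 541 ± 5.13 CPM (log2 0.55, SE 0.04, adjusted p = 1.7e-13). Antagonists split: FST, which binds activins, rose 1.37-fold, whereas FSTL1 and NOG each fell to 76.0% of Csi.

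Known TGFβ target genes did not move as a block. Of 43 tested feedback and direct targets, 14 were higher and 16 lower, both above the background shares, and the median log2 fold change was 0.02. CCN2, a matricellular growth factor partner, fell from 146 ± 1.6 to 96.1 ± 2.59 CPM (log2 -0.61, adjusted p = 4.5e-13), and the cytokine IL11 from 10.4 ± 0.215 to 5.5 ± 0.592 CPM (log2 -0.92, adjusted p = 2.7e-08). BHLHE40, a transcriptional repressor, fell to 75.4% of Csi and VEGFA, the angiogenic ligand, to 80.2%.

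Several targets were higher instead, some of which restrain the pathway. Not all feedback genes rose: SMURF2 and TGIF1 were at log2 0.05 and -0.05. SKIL, a corepressor that binds SMADs, stood at 30.2, 28.4 and 27.7 CPM in Csi and at 46.0, 44.1 and 48.3 CPM in siSMAD2/3/4, a 1.6-fold rise without overlap (log2 0.68, SE 0.06, adjusted p = 7.5e-11). SMURF1, a ubiquitin ligase for SMADs and receptors, rose 1.3-fold (adjusted p = 2.2e-07), and BAMBI, a decoy receptor, 1.43-fold (adjusted p = 7.6e-06). THBS1, a matrix protein that activates latent TGFβ, rose from 939 ± 8.85 to 1249 ± 18.7 CPM (log2 0.41, adjusted p = 9.1e-11). ANGPTL4 and PDGFB, secreted factors, rose 1.86-fold and 1.88-fold from low levels (adjusted p = 1.9e-06 and 2.8e-05), and the scaffold NEDD9 rose 1.37-fold (adjusted p = 8.7e-10). With the flow cell term the list had 8 higher and 14 lower, and the called targets named here kept their direction and call. In the fit of 4 MDA-MB-231 groups BHLHE40, VEGFA, SKIL, SMURF1, BAMBI, THBS1, ANGPTL4, PDGFB and NEDD9 lost their call (adjusted p = 0.054 to 0.49).

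**Figure D1:**
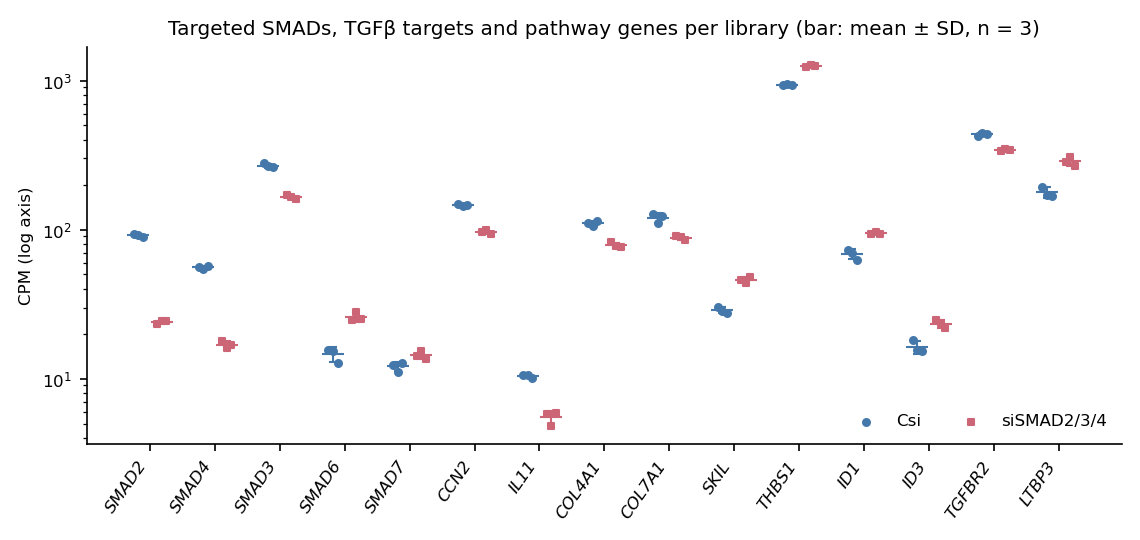
CPM on a log axis (y) of the targeted SMADs, TGFβ targets and pathway genes (x), with 1 point per library and bars for mean ± SD (n = 3 each) in Csi (circles) and siSMAD2/3/4 (squares). The groups do not overlap for any gene shown, and CCN2, IL11, COL4A1 and COL7A1 lie lower in siSMAD2/3/4 while SKIL, THBS1, ID1, ID3 and LTBP3 lie higher.

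The start regions of a falling and a rising target are shown to set their SMAD letters side by side. Sequences are RefSeq's on GRCh38.p14, 250 bases before to 50 after the start, and capitals mark the 5-base SMAD element CAGAC on either strand. CCN2 lies on the minus strand at chr6:131951323-131951622 with 1 match, 177 bases before the start, and SKIL on the plus strand at chr3:170357465-170357764 with 1 match.
CCN2: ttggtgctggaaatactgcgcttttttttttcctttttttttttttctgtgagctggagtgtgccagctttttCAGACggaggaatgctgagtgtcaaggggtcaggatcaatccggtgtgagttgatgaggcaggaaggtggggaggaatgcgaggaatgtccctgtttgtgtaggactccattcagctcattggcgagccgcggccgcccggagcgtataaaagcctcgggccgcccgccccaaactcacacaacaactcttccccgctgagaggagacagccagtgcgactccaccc
SKIL: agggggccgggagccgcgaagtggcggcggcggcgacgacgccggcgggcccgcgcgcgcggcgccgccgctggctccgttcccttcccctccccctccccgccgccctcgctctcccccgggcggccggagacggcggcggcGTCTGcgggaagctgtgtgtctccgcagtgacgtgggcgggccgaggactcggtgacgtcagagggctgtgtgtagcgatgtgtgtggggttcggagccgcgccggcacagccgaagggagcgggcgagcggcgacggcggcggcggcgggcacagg
Each window held the element once, and the 2 genes moved in opposite directions. The element was present in 43.3% of 10985 start regions of tested protein-coding genes, in 43.1% of those of genes that were higher and 41.9% of those that were lower. Among DEGs it was in 41 of 77 higher (53.2%) and 38 of 96 lower genes (39.6%), and in 19 of 31 TGFβ targets (61.3%). These letters are short and frequent, and a match describes the sequence only.

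Matrix genes changed gene by gene. Of 29 tested collagens, 5 were higher and 8 lower (median log2 -0.06), beside 16.3% and 19.7% of all genes tested. Basement membrane collagen fell: COL4A1 went from 109.97 ± 4.17 to 78.6 ± 3.3 CPM (adjusted p = 5.3e-10) and COL4A2 from 293 ± 13.9 to 212 ± 13.6 CPM (adjusted p = 5.8e-10). COL6A3, of the microfibrillar collagen VI, fell most among them, from 137.9, 134.6 and 128.8 CPM to 78.5, 72.4 and 68.9 CPM (log2 -0.87, SE 0.05, adjusted p = 2.7e-15). COL7A1, the anchoring fibril collagen, fell to 73.5% and COL8A1 to 68.6% of Csi. Fibrillar collagen I rose in contrast: COL1A1 went from 22.6 ± 2.36 to 38.3 ± 1.85 CPM (log2 0.77, adjusted p = 1.9e-10) and COL1A2 rose 1.31-fold (adjusted p = 8.9e-07). Both collagen I genes are also on the list of fibroblast markers above. The summed level of that list was higher in siSMAD2/3/4, as given above, but it contains the collagen I genes themselves. Of its 8 tested members 2 were higher, COL1A1 and COL1A2, and 2 were lower. A part of fibroblasts in the result was not tested. COL3A1 and LUM, on the same list, were at no more than 0.443 and 2.56 CPM in any library.

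Laminins and their partners split likewise, with 3 of 12 higher and 3 lower, beside 16.3% and 19.7% of all genes tested. The laminin chain LAMB1 fell to 73.3% of Csi (adjusted p = 1.7e-10). HSPG2, which encodes perlecan, rose from 389, 323 and 326 CPM to 583, 589.7 and 479.6 CPM, without overlap but with a wide spread (log2 0.67, SE 0.06, adjusted p = 1.3e-10). LAMB2 rose 1.24-fold. Fibronectin, FN1, rose from 2441 ± 132 to 2905 ± 127 CPM (log2 0.25, adjusted p = 1.1e-05).

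Genes for matrix breakdown and cell attachment leaned lower. Of 31 tested metalloproteinases and plasminogen system genes, 11 were lower and 7 higher, 10 and 4 with the flow cell term, and of 18 integrins 7 were lower and 4 higher. PLAU, the urokinase that activates plasminogen, stood at 271, 261 and 271 CPM in Csi and at 148, 145 and 135 CPM in siSMAD2/3/4, 53.2% of Csi (log2 -0.91, SE 0.04, adjusted p = 4.4e-17), and 31.0% of its exonic bases overlap another gene. The metalloproteinase ADAMTS12 fell to 56.2% (adjusted p = 1.1e-15) and the membrane collagenase MMP14 to 84.2% (adjusted p = 3.3e-06), whereas the inhibitor TIMP2 rose from 885 ± 10.6 to 1138 ± 11.6 CPM (adjusted p = 1.4e-09) and ADAMTS15 and MMP15 rose 1.29-fold and 1.51-fold.

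Among integrins the collagen receptor chain ITGA2 fell from 436, 452 and 429.9 CPM to 261, 254 and 249 CPM (58.0% of Csi, log2 -0.79, SE 0.04, adjusted p = 2e-16). Its partner ITGB1 fell to 70.6% and ITGB8, which activates latent TGFβ, to 61.7% (adjusted p = 5.1e-12 and 3.7e-09). ITGB4, the hemidesmosome chain, rose from 412 ± 21.9 to 584 ± 24.7 CPM (log2 0.50, adjusted p = 2.8e-11), and ITGB3 rose 1.57-fold with 35.7% of its exonic bases shared with another gene. The proteoglycan SDC1 fell to 56.7% (adjusted p = 6.7e-14) and the hyaluronan receptor CD44 to 83.6% (adjusted p = 1.2e-06), while the hyaluronan synthase HAS3 rose 1.88-fold from 5.61 ± 0.639 CPM (adjusted p = 4.1e-08). Among cytoskeletal genes DIAPH3, an actin nucleator, fell to 49.4% (adjusted p = 1.7e-16) and RND3, which relaxes actomyosin, rose 1.42-fold (adjusted p = 1.1e-09).

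EMT factors did not shift together: of 18 tested, 4 were higher and 5 lower (median log2 -0.05). Of all genes tested 16.3% were higher and 19.7% lower. FOSL1 and the crosslinking enzyme LOX each fell to 70.2% of Csi, and the EMT factor ZEB2 to 67.6% (adjusted p = 7.5e-11, 5.9e-09 and 1.1e-05). SNAI2, which encodes SLUG, was at 30.5 ± 1.56 against 26.0 ± 0.387 CPM (log2 -0.23, adjusted p = 0.0052), and at -0.21 with the flow cell term (adjusted p = 0.096). SOX4, a transcription factor induced by TGFβ in many cells, rose from 133, 143 and 133 CPM to 176, 178 and 181 CPM, 1.31-fold and without overlap (adjusted p = 6.5e-09). VIM was at 1015 ± 42.2 and 985 ± 7.86 CPM and overlapped (log2 -0.04, SE 0.04, adjusted p = 0.41).

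Genes of epithelial junctions and polarity were among those that rose. Of 28 tested epithelial genes, 11 were higher and 3 lower, 10 and 2 with the flow cell term, and the median log2 fold change was 0.16. The summed level of 12 markers of MCF-10A-like basal epithelium moved the other way, from at least 187 CPM in every Csi library to no more than 141 CPM in siSMAD2/3/4. TJP3, a scaffold of tight junctions, stood at 3.04, 2.35 and 3.3 CPM in Csi and at 8.84, 7.84 and 8.24 CPM in siSMAD2/3/4, a 2.88-fold rise without overlap (log2 1.53, SE 0.13, adjusted p = 6.6e-11). CGNL1, which encodes the junction protein paracingulin, rose 2.01-fold from 11.9 ± 0.947 CPM (adjusted p = 5.4e-12). Among desmosome genes PKP3 rose 1.59-fold, JUP, or plakoglobin, 1.56-fold from 185 ± 8.17 CPM, and DSP 1.24-fold (adjusted p = 1.1e-11, 2.4e-13 and 8.4e-08). KRT8, KRT18 and KRT19, keratins of simple epithelia, rose 1.17-fold, 1.2-fold and 1.15-fold from levels of 399 CPM or more. The splicing regulator ESRP2 and the epithelial factor ELF3 rose 1.51-fold and 1.35-fold.

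The rise did not extend to every epithelial gene. The adherens junction gene CDH1 was lower, at 17.9 ± 1.09 against 14.5 ± 0.369 CPM (log2 -0.30, adjusted p = 0.0024), and at -0.29 with the flow cell term (adjusted p = 0.061). The adhesion molecule EPCAM fell to 78.8% (adjusted p = 0.0006). The tight junction claudin CLDN1 fell from 5.01, 4.31 and 4.5 CPM to 3.1, 1.64 and 2.57 CPM (adjusted p = 0.00011). Chosen after its values were seen, LLGL2, a polarity gene, rose 1.71-fold from 45.4 ± 1.14 CPM (adjusted p = 8.2e-14).

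Among the higher DEGs named by the rule, several are known from secretory epithelium or liver. MUC5AC, a gel-forming mucin, stood at 13.4, 9.14 and 11.3 CPM in Csi and at 22.4, 26.5 and 20.9 CPM in siSMAD2/3/4 and rose 2.08-fold without overlap (log2 1.06, SE 0.10, adjusted p = 5.1e-10). AQP5, a water channel of secretory glands, rose 2.01-fold from 15.3 ± 0.663 CPM (adjusted p = 8.1e-13), and its antisense lncRNA AQP5-AS1 2.18-fold from 1.6 ± 0.425 CPM (adjusted p = 2e-05). Since strand was ignored in counting and 12.8% of the exonic bases of AQP5-AS1 are shared, their reads cannot be fully told apart. Of others, chosen after their values were seen, the mucins MUC4 and MUC16 rose 1.73-fold and 2.93-fold, the trefoil peptide TFF2 1.63-fold and the water channel AQP3 1.73-fold (adjusted p = 4.7e-08, 0.00017, 4.1e-06 and 1.9e-10), with MUC16 at no more than 1.56 CPM. CREB3L3, a membrane-bound transcription factor best known from liver and gut, had the largest fold change of the higher DEGs named by the rule, from 0.853, 1.0 and 0.654 CPM to 3.79, 4.4 and 4.07 CPM (4.86-fold, log2 2.28, SE 0.20, adjusted p = 1.2e-10). FGB, the fibrinogen beta chain, BCAS1, PRSS33, CAPN8 and EXOC3L2 were not named by the rule but chosen after their values were seen. They were also above a log2 fold change of 1 by test. In the order given they rose 3.52-fold, 3.65-fold, 4.58-fold, 3.17-fold and 3.39-fold from Csi levels of 0.546 to 1.51 CPM.

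**Figure D2:**
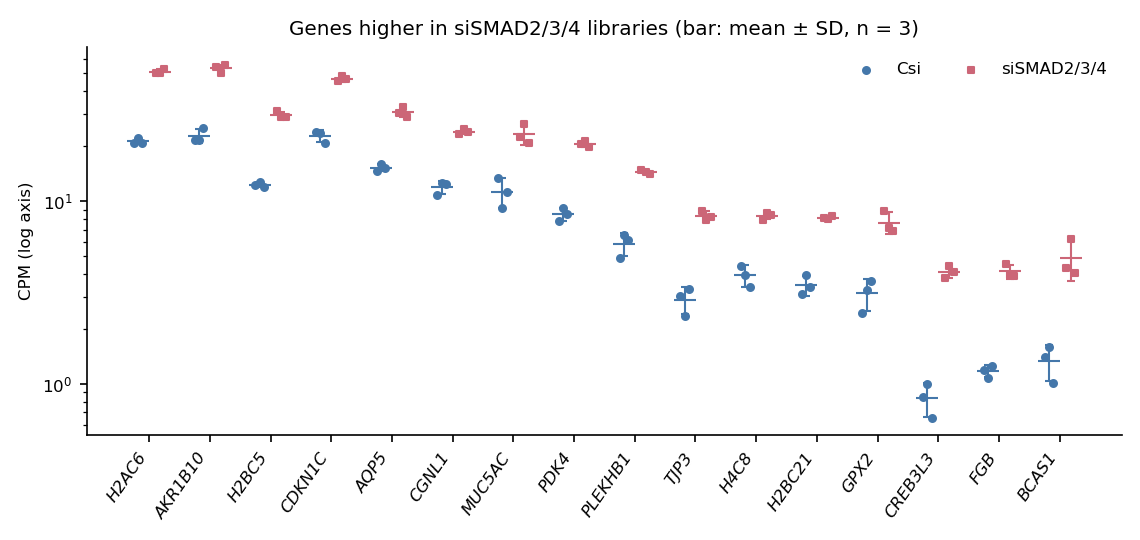
CPM on a log axis (y) of 16 genes (x) that rose, with 1 point per library and bars for mean ± SD (n = 3 each) in Csi (circles) and siSMAD2/3/4 (squares). Every siSMAD2/3/4 library lies above every Csi library for each gene, from H2AC6 and AKR1B10 at 50.2 CPM or more down to CREB3L3, FGB and BCAS1 at 3.79 to 6.23 CPM.

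Metabolic, redox and growth-restraining genes were among the most strongly expressed of the higher DEGs. AKR1B10, an aldo-keto reductase that reduces retinal and lipid aldehydes, stood at 21.7, 21.6 and 25.2 CPM in Csi and at 53.9, 50.5 and 55.4 CPM in siSMAD2/3/4 (2.33-fold, log2 1.22, SE 0.06, adjusted p = 8.9e-16). GPX2, a glutathione peroxidase of epithelia, rose 2.42-fold from 3.13 ± 0.62 CPM (adjusted p = 1e-08). PDK4, which turns off pyruvate dehydrogenase, stood at 7.78, 9.14 and 8.53 CPM against 20.6, 21.3 and 19.7 CPM, a 2.41-fold rise (log2 1.27, SE 0.08, adjusted p = 1.7e-13). All siSMAD2/3/4 values of these genes lay above all Csi values. CDKN1C, the CDK inhibitor p57, rose from 24.0, 23.5 and 20.7 CPM to 45.3, 48.5 and 46.4 CPM (2.06-fold, log2 1.04, SE 0.06, adjusted p = 2.8e-14), and PLEKHB1, a pleckstrin homology protein, 2.45-fold from 5.85 ± 0.836 CPM. TXNIP, the thioredoxin inhibitor that also limits glucose uptake, and CITED2, a partner of CBP and p300, were chosen after their values were seen. TXNIP rose from 355 ± 12.3 to 625 ± 7.35 CPM (log2 0.82, adjusted p = 7.3e-17) and CITED2 from 128.8 ± 3.41 to 211 ± 5.73 CPM (log2 0.71, adjusted p = 6.5e-15).

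NRF2 target genes, which answer to oxidative stress, were higher for 10 and lower for 5 of 26 tested members, 3 being lower with the flow cell term. Beside AKR1B10 and GPX2, AKR1C2, a steroid and prostaglandin reductase, rose 1.54-fold from 24.9 ± 0.293 CPM and the exporter ABCC3 1.4-fold (adjusted p = 6e-10 and 8.9e-10). AKR1C2 has near-identical paralogs whose reads could be split in counting. GCLM, a subunit of the enzyme that limits glutathione synthesis, fell to 78.3% (adjusted p = 2.6e-07). Prostaglandin genes were higher for 8 and lower for 2 of 15, with a median log2 fold change of 0.29: the synthase PTGES rose 1.26-fold and the receptor PTGER4 1.55-fold (adjusted p = 4.6e-07 and 9.9e-07).

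Replication-dependent histone genes, which supply histones for newly made DNA, rose while the genes of S phase fell. Of 66 genes of the list 21 passed the count filter, and 12 of those were higher, 7 as DEGs, and H3C2 was lower (median log2 0.74). H3C2 was at 0.877 ± 0.129 against 0.455 ± 0.134 CPM (adjusted p = 0.033), and its call was not kept with the flow cell term (adjusted p = 0.47) or without Csi replicate 2 or 3 or siSMAD2/3/4 replicate 1 or 2 (adjusted p = 0.076 to 0.16). With the flow cell term 10 were higher; the other genes of the list were not tested. H2AC6 stood at 20.8, 22.1 and 20.8 CPM in Csi and at 50.2, 50.5 and 52.7 CPM in siSMAD2/3/4 (2.4-fold, log2 1.27, SE 0.06, adjusted p = 8.3e-17). H2BC5 rose 2.4-fold from 12.3 ± 0.395 CPM, H2BC21 2.32-fold from 3.48 ± 0.438 CPM and H4C8 2.13-fold from 3.93 ± 0.529 CPM. The linker histone H1-2 rose 1.75-fold and H2BC12 1.32-fold from 42.9 ± 1.83 CPM. H2AC6, H2BC5, H2BC21 and H1-2 are known also to give polyadenylated RNA in cells that do not divide, and the libraries were made from ribosomal RNA-depleted total RNA, so neither form was selected. SLBP, which binds the stem-loop of the canonical histone mRNAs, fell to 69.4% of Csi (adjusted p = 1.8e-10). Histone genes are near-identical copies, so pairs that map to several of them fall to the mapping quality filter and single genes are uncertain.

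The H2BC5 start region is shown for its repeated CCAAT boxes, in capitals on either strand, at chr6:26157871-26158170 on the plus strand (GRCh38.p14).
H2BC5: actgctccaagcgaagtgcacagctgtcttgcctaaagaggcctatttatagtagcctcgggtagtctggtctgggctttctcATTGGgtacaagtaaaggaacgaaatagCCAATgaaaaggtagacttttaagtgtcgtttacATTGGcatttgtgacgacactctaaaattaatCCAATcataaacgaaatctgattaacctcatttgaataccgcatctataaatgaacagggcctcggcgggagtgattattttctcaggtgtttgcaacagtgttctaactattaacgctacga
It held 4 boxes, between 167 and 73 bases before the start. CCAAT was present in 19 of 21 histone start regions (90.5%) against 36.3% of all, in 32.3% of genes that were higher and in 41.9% of genes that were lower, and in 17 of 23 cholesterol genes (73.9%).

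lncRNA calls were more often higher than lower, as given above for DEGs: of 2782 tested, 8.7% were higher and 4.28% lower, with a median log2 fold change of 0.09. Named by the rule, LINC03040 fell from 13.2, 13.6 and 12.3 CPM to 3.9, 5.37 and 4.39 CPM (35.0% of Csi, adjusted p = 1.4e-12) and MIR924HG to 46.7%. PRADX rose 2.19-fold from 1.43 ± 0.0645 CPM, with 66.1% of its exonic bases shared with another gene.

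Interferon-stimulated genes leaned higher. Of 51 tested, 23 rose and 8 fell, 18 and 5 with the flow cell term, and the median log2 fold change was 0.15. IFIT1, which binds foreign RNA, stood at 85.4, 92.8 and 93.3 CPM in Csi and at 149.8, 147 and 163 CPM in siSMAD2/3/4 (1.69-fold, log2 0.76, SE 0.05, adjusted p = 3.2e-14). IFIT2 rose 1.4-fold, the ubiquitin-like modifier ISG15 1.34-fold and STAT2, which carries the interferon signal, 1.36-fold (adjusted p = 3.2e-11, 1.5e-09 and 5.3e-10). IRF7 rose 1.5-fold from 20.3 ± 1.18 CPM, and the RNA sensor IFIH1 1.35-fold. The list was not uniform, since OAS1 and OAS2 rose 1.65-fold and 1.37-fold while OAS3, of the same family of RNA-activated enzymes, fell to 74.0% and GBP1 to 82.8%. MX1, a further defining member, was at log2 -0.10 (SE 0.06, adjusted p = 0.15). Both groups had been transfected with siRNA.

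NF-κB genes leaned lower, with 11 of 23 lower and 3 higher (median log2 -0.12). NFKB2 and RELB, subunits of the noncanonical arm, fell to 78.6% and 73.5% of Csi (adjusted p = 1.4e-06 and 1.1e-05), the adaptor TRAF2 to 77.2% and the inhibitor NFKBIB to 72.2%. Of 31 tested chemokines and cytokines only 5 were higher and 4 lower, no more than the shares of all genes tested (16.3% and 19.7%). CX3CL1, or fractalkine, rose 1.48-fold from 35.0 ± 0.56 CPM, the macrophage growth factor CSF1 1.28-fold from 707 ± 15.3 CPM and the monocyte attractant CCL2 1.31-fold (adjusted p = 5e-10, 9.1e-09 and 0.00015). The neutrophil attractant CXCL8 fell to 74.9% (adjusted p = 0.00029). THBD, thrombomodulin, rose from 117 ± 9.24 to 201 ± 10.3 CPM (log2 0.78, adjusted p = 4.6e-14), and TFPI, which inhibits tissue factor, fell to 70.8% (adjusted p = 5.6e-10).

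Most genes of cholesterol synthesis fell. Of 31 tested cholesterol and SREBP target genes, 22 fell and 5 rose (18 and 3 with the flow cell term), with a median log2 fold change of -0.34. INSIG1, which holds SREBP in the endoplasmic reticulum (ER) and is itself an SREBP target, stood at 462, 490.4 and 463 CPM in Csi and at 239.6, 244 and 256 CPM in siSMAD2/3/4 (52.2%, log2 -0.94, SE 0.04, adjusted p = 8.9e-18). The synthesis enzymes HMGCS1 and FDPS fell to 59.8% and 68.9% of Csi (adjusted p = 8.9e-15 and 1.1e-11), with 37.7% of the exonic bases of HMGCS1 shared with another gene. Exporters of cholesterol rose: ABCA1 went from 91.4, 89.2 and 91.2 CPM to 149.7, 146 and 143 CPM (1.61-fold, log2 0.69, SE 0.04, adjusted p = 2.5e-14) and ABCG1 rose 1.98-fold from 6.23 ± 0.825 CPM (adjusted p = 1.1e-08). They are targets of the oxysterol receptors LXR.

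Lipid genes beyond cholesterol changed in both directions, with 12 of 35 higher and 8 lower, 10 and 5 with the flow cell term. ACSL4, which activates arachidonic acid, fell from 227 ± 0.996 to 123 ± 4.22 CPM (54.1%, log2 -0.89, adjusted p = 4.8e-17). The desaturase FADS1 and ACLY, which makes cytosolic acetyl-CoA, fell to 72.5% and 74.5% (adjusted p = 1.9e-11 and 6.2e-11). The lipase PNPLA2 rose 1.36-fold and HADHB, of mitochondrial beta-oxidation, 1.31-fold (adjusted p = 2.1e-09 and 1.1e-08).

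Amino acid, glucose and ER genes leaned lower. Of 32 genes of the ATF4 response and tRNA synthetases, 20 fell and 1 rose (median log2 -0.23), although ATF4 itself was at 139 ± 1.44 and 134 ± 3.41 CPM and overlapped (log2 -0.05, adjusted p = 0.4). With the flow cell term the median of the list was -0.24, and fewer members were called lower. PSAT1, an enzyme of serine synthesis, stood at 91.1, 99.9 and 100.6 CPM in Csi and at 51.2, 52.2 and 51.2 CPM in siSMAD2/3/4 (log2 -0.92, SE 0.05, adjusted p = 1.1e-15). PHGDH, the first enzyme of that pathway, fell to 62.0%, SHMT2 to 75.4%, and the tRNA synthetases WARS1 and IARS1 to 66.8% and 77.9%. The member that rose was the amino acid transporter SLC7A5, 1.25-fold.

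Of 22 glycolysis genes, 13 fell and 1 rose (median log2 -0.19), and of 33 hypoxia response genes 15 fell and 8 rose (median log2 -0.18). PFKP and PGK1 fell to 79.9% and 83.4% of Csi, while the isoenzyme PFKM rose 1.28-fold and GAPDH was at log2 0.03 (SE 0.04, adjusted p = 0.53). NDRG1 and DDIT4, stress-induced growth regulators, fell to 68.1% and 73.3%, and HIF1A, the oxygen-regulated factor, from 619 ± 16.2 to 509 ± 8.35 CPM (82.1%, adjusted p = 2.8e-07). PDK1 fell to 73.3% while its relatives PDK2 and PDK4 rose.

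The ER chaperone HSPA5, or BiP, stood at 1091, 1137 and 1147 CPM in Csi and at 696, 696 and 694 CPM in siSMAD2/3/4, 61.8% of Csi without overlap (log2 -0.69, SE 0.04, adjusted p = 1.1e-15). Of 33 ER folding and stress genes, 14 fell and 4 rose (median log2 -0.08), with SSR3 of the translocon at 66.9% and EDEM1 of ER-associated degradation at 72.3%. Fewer of the list were called lower with the flow cell term (median log2 -0.06). DDIT3, the stress factor CHOP, was at 6.53 ± 0.799 and 5.66 ± 0.846 CPM and overlapped (adjusted p = 0.23). Of 53 autophagy and lysosome genes 19 were higher and 13 lower. The higher share exceeded that of all genes (16.3%) and of protein-coding genes (18.7%). The lower share was near that of protein-coding genes (24.1%, against 19.7% of all genes). The kinase ULK1 rose 1.45-fold, TFEB, the lysosomal master factor, 1.49-fold, and MAP1LC3B, which coats autophagosomes, 1.27-fold (adjusted p = 8.5e-10, 2.2e-07 and 5.6e-07).

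Genes of housekeeping machines changed little in size, though those called were mostly lower in the main fit. Of 83 cytosolic ribosomal protein genes 21 were lower and 2 higher (median log2 -0.02), of 74 oxidative phosphorylation subunits 13 were lower and 4 higher (-0.03), 7 and 7 with the flow cell term, and of 37 proteasome subunits 12 were lower and 0 higher (-0.09). The 13 mitochondrially encoded genes differed, with 8 higher and MT-ATP8 lower, 12 higher and 0 lower with the flow cell term (median log2 0.21 and 0.43), but only 1 higher and 1 lower in DESeq2. MT-ATP8 was at log2 -0.26 (adjusted p = 0.0091) and lost its call without Csi replicate 3 (-0.24) and without siSMAD2/3/4 replicate 1 (-0.21) or 2 (-0.16). MT-CO3 stood at 4385, 3922 and 3472 CPM in Csi and at 4577, 4890.4 and 5452 CPM in siSMAD2/3/4 (log2 0.34, adjusted p = 1.4e-05), while MT-CO1 overlapped between the groups and had an adjusted p of 0.12 in DESeq2. Mitochondrial genes took 3.81% to 4.95% of counts in Csi and 4.87% to 6.02% in siSMAD2/3/4.

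Growth factor and fate signaling genes changed in both directions, with 6 of 25 RAS genes and ERK feedback regulators higher and 7 lower. The shares of all genes tested were 16.3% higher and 19.7% lower. SPRY2, a feedback inhibitor of receptor tyrosine kinases, rose from 71.3, 71.3 and 70.3 CPM to 113.2, 112.8 and 110.8 CPM (1.58-fold, log2 0.66, SE 0.04, adjusted p = 1.4e-13), and ERRFI1, an EGFR inhibitor, 1.26-fold. DUSP6, the phosphatase of ERK, fell to 69.9% (adjusted p = 3e-12). The ligand NRG1 rose 1.25-fold, FGFRL1, a receptor without a kinase domain, 1.58-fold and VEGFB 1.37-fold. Of 28 YAP and TEAD targets, 9 were higher and 10 lower: AMOTL1 fell to 66.3% and AMOTL2 rose 1.32-fold, both scaffolds that bind YAP. WNT genes were higher for 11 of 33 and lower for 4, and for 6 and 3 with the flow cell term. The co-receptors LRP5 and LRP6 rose 1.2-fold and 1.24-fold, and the WNT effector LEF1 fell to 59.4% from 3.82 ± 0.571 CPM (adjusted p = 0.001).

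In the Notch pathway 6 of 23 genes were higher and 5 lower, beside 16.3% and 19.7% of all genes tested. LFNG, a sugar transferase that modifies Notch receptors, stood at 69.9, 68.5 and 68.4 CPM in Csi and at 123.3, 130.7 and 122.2 CPM in siSMAD2/3/4 (1.82-fold, log2 0.86, SE 0.04, adjusted p = 6e-16). NOTCH3 rose 1.9-fold from 2.5 ± 0.303 CPM and HES2 1.68-fold, whereas RBPJ, the nuclear effector, fell to 85.1%, and the target HES1 overlapped between groups (log2 -0.15, adjusted p = 0.13).

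Apoptosis regulators changed in both directions, 6 of 29 being higher and 9 lower, beside 16.3% and 19.7% of all genes tested. BCL2, which protects from apoptosis, stood at 12.1, 11.1 and 12.2 CPM in Csi and at 6.37, 6.55 and 6.71 CPM in siSMAD2/3/4 (55.4%, log2 -0.85, SE 0.10, adjusted p = 1.8e-08), and MCL1, with the same function, fell too (log2 -0.42, adjusted p = 4.1e-10). BMF, a BH3-only activator of apoptosis, rose 1.97-fold from 15.0 ± 0.353 CPM (adjusted p = 7.1e-13). p53 targets were lower for 15 of 32 and higher for 5 (median log2 -0.08). With the flow cell term fewer were called lower (median log2 -0.09). PLK2 rose 1.47-fold and CCNG1 fell to 64.9%, and CDKN1A, the CDK inhibitor p21, was at 122.1 ± 5.5 and 129.1 ± 4.81 CPM and overlapped (log2 0.08, SE 0.04, adjusted p = 0.17).

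The genes that fell with the smallest adjusted p after SMAD2 had varied functions. ADIPOR1, the adiponectin receptor, stood at 106.1, 117.6 and 113.9 CPM in Csi and at 35.6, 36.2 and 31.7 CPM in siSMAD2/3/4, 30.7% of Csi and close to the share left of SMAD4 (log2 -1.70, SE 0.05, adjusted p = 1.5e-20). DPY19L1, which attaches mannose to secreted proteins, fell to 38.5% from 157 ± 4.67 CPM (adjusted p = 1.9e-20) and MZT1, a small protein of the gamma-tubulin ring complex, to 30.8% from 49.0 ± 2.98 CPM (adjusted p = 8.3e-19). Their values did not overlap between groups, and whether an siRNA acted on these RNAs directly was not tested. DEK and NUCKS1, abundant chromatin proteins, fell to 42.7% from 528 ± 24.5 CPM and to 46.3% from 765 ± 34.4 CPM. The splicing regulator PTBP3 fell to 41.8%, the membrane receptor DCBLD2 to 49.6% from 529 ± 18.0 CPM, and NT5E, the ectonucleotidase CD73 that makes adenosine, to 45.0% from 471, 514 and 471 CPM to 216, 217 and 223 CPM (log2 -1.15, SE 0.04, adjusted p = 1.2e-19).

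By size of change the list of the rule added further genes. APOBEC3B, a DNA cytosine deaminase, fell to 27.3% from 20.1 ± 0.763 CPM (adjusted p = 8.7e-17) and PCLAF, a partner of PCNA, to 30.5% from 27.8 ± 1.75 CPM (adjusted p = 4.4e-16). Of their exonic bases, 23.3% and 29.3% are shared with another gene. MBOAT1, a lysophospholipid acyltransferase, fell to 30.6%, the adhesion molecule NEGR1 to 31.3% and GJA1, the gap junction protein connexin 43, to 35.9%, from Csi levels of 6.7 to 8.87 CPM. GPD2, a mitochondrial enzyme of the glycerol phosphate shuttle chosen after its values were seen, fell to 42.5% from 117 ± 5.61 CPM (adjusted p = 1.2e-18).

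Genes of S phase and G2/M fell. Of 56 S phase genes 55 were lower, and of 65 G2/M genes 64, with median log2 fold changes of -0.85 and -0.67. Of 32 cyclins, CDKs and CDK inhibitors 23 were lower and 3 higher (median -0.41). Of 55 DNA double-strand break repair genes 41 were lower and 0 higher (median -0.35), 35 and 1 with the flow cell term. Cytokinesis genes were more mixed: of 34, 16 were lower and 5 higher (median -0.07), 14 and 2 with the flow cell term. DTL, which marks proteins for destruction during replication, stood at 56.3, 64.9 and 61.9 CPM in Csi and at 23.0, 22.7 and 23.1 CPM in siSMAD2/3/4 (37.5%, log2 -1.42, SE 0.06, adjusted p = 8.9e-18), and BRCA1 fell to 50.4%. E2F1, which drives S phase genes, fell to 53.6%, while CCND1 fell less, to 76.3%, and its relative CCND3 rose 1.34-fold. In bulk RNA fewer cycling cells and less of these RNAs per cell cannot be told apart. Of 44 chromatin, DNA methylation and Polycomb enzymes 15 were higher and 13 lower (median log2 0.03). UHRF1, which is also on the S phase list, fell to 53.5%, DNMT1 to 67.3% and EZH2 to 65.1%, whereas the histone demethylase KDM6B rose 1.63-fold from 38.05 ± 2.83 CPM (adjusted p = 1.1e-11).

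The DTL start region is shown for its E2F letters, in capitals, at chr1:212035498-212035797 on the plus strand (GRCh38.p14).
DTL: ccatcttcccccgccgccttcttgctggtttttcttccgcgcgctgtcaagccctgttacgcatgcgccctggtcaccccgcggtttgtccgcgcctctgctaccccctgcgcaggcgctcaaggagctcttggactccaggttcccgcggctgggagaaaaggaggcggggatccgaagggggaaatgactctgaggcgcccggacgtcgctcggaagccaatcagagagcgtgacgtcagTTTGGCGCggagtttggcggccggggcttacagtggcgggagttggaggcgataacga
The search used TTTCCCGC, TTTCGCGC, TTTGCCGC and TTTGGCGC on both strands and found 1 match, 8 bases before the start. These letters were in 5.23% of all start regions, 21 of 96 lower DEGs (21.9%), 2 of 77 higher DEGs (2.60%) and 22 of 46 S phase genes (47.8%).

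The same genes were read in libraries that share no sample with this comparison, those of MI- and MII-spheres with or without TGFβ. MI-spheres are 3D cultures of the immortalized mammary line MCF-10A, and MII-spheres of its HRAS-transformed derivative. Over all tested genes 28.7% were higher and 27.4% lower with TGFβ in MI-spheres, and 29.9% and 27.6% in MII-spheres. The shares below are of genes tested in both comparisons. Of all such genes 31.2% were higher and 25.2% lower in MI-spheres, and 32.7% and 25.8% in MII-spheres. Genes that were lower after SMAD depletion were more often higher with TGFβ in MII-spheres: of the 95 lower DEGs tested there, 59 were higher (62.1%) and 10 lower (10.5%), with a median log2 fold change of 0.63. In MI-spheres 58 of the 164 were not tested, and of the rest 31 were higher (29.2%) and 21 lower (19.8%). Genes that rose after SMAD depletion were more often lower with TGFβ in both lines: 41 of 87 (47.1%) in MII-spheres and 45 of 96 (46.9%) in MI-spheres were lower, with medians of -0.45 and -0.53. Across all genes tested in both, the 2 log2 fold changes correlated with r = -0.31 and rho = -0.30 over 14336 genes in MII-spheres, and with r = -0.164 and rho = -0.192 over 14672 genes in MI-spheres. These are values across genes, which are not independent. The comparisons also differ in cell line and culture. Ligand was added to the spheres, whereas SMADs were depleted in MDA-MB-231 cells without added ligand.

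Among the genes described above, collagen IV responded in opposite directions. COL4A1 rose with TGFβ by log2 2.21 in MI- and 4.35 in MII-spheres. Of genes that rose after SMAD depletion, MUC5AC fell by 2.97 on the log2 scale in MI- and by 1.56 in MII-spheres, CDKN1C fell by 0.86 and by 1.88, BCAS1 fell by 3.70 and by 0.97, GPX2 fell by 2.54 and by 0.64 and AKR1B10 fell by 0.50 and by 1.07. TJP3 fell by 1.14 and by 0.26 and PDK4 fell by 2.18 and by 0.39. Others did not follow: FGB was at -1.85 in MI- but at 2.95 in MII-spheres, and of 21 histone genes 20 were higher in MII-spheres while 9 were lower in MI-spheres. All these examples were chosen after their values were seen. Some genes moved the same way in each setting: THBS1 rose after SMAD depletion and with TGFβ (log2 1.94 and 0.82), as did PDGFB (2.85 and 1.57) and NEDD9 (0.58 and 0.25). SMAD6, in contrast, rose after depletion and was lower with TGFβ (-1.65 and -0.55). The S phase list fell after depletion, rose with TGFβ in MII-spheres for 54 of 56 genes, and in MI-spheres was higher for 12 and lower for 9.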

How the data were processed

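Total RNA of MDA-MB-231 cells was depleted of ribosomal RNA and sequenced as a TruSeq library in pairs. The authors trimmed the reads with Trimmomatic, aligned them with STAR to GRCh38 (GRCh38.p13 per the labels) and deposited raw counts per gene, 1 table per library, made with featureCounts (Subread 2.0.0) on GENCODE 38, for pairs with both ends mapped and a mapping quality of at least 30, ignoring strand. The counts are not normalized and no libraries were pooled. DESeq2 is also in the submitters' processing notes. Symbols, RNA classes and positions came from GENCODE 44 (60463 of 60708 genes), and start regions from RefSeq on GRCh38.p14, 1 per gene.

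The 3 siSMAD2/3/4 and 3 Csi libraries were fitted on their own. Library sizes were scaled by TMM over the genes that filterByExpr kept. The test was the quasi-likelihood F-test of edgeR, and p-values of all genes tested were adjusted together (Benjamini-Hochberg), with calls at an adjusted p of 0.05. DEGs also had an absolute log2 fold-change above 1. The TGFβ effect was fitted likewise in MI- and in MII-spheres, 3 against 3 libraries each. An exact permutation test of 3 against 3 cannot give a p under 0.1, so single genes have the p of the model. The 3 libraries per group limit the precision, and depth per library is given in the text. The fits were also tested on simulated data.

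Gene lists were compiled by hand, and they and the libraries were chosen with earlier results of these data known. Named are the 3 targeted genes; per direction, the 10 protein-coding DEGs with the smallest adjusted p and the 10 with the largest change at a mean of at least 5 CPM, both without overlap between groups, and the 3 lncRNA DEGs with the smallest adjusted p; and per list, the called members with the smallest adjusted p and members that define it. Some genes of the rule are not reported here. Other list members named were chosen after their values were seen. Alternatives were DESeq2, its size factors in edgeR, other filters, gene-length correction, flow cell as a term or 1 flow cell only, a replicate block, a fit of 4 MDA-MB-231 groups, protein-coding genes only, a test against the fold threshold and leaving out each library. After the data had been seen, a correction for GC content was added. Fits ran in R 4.3.3 with edgeR 4.0.16 and limma 3.58.1, on which it rests, and with DESeq2 1.42.0 for an alternative. Tables and plots were made with matplotlib 3.10.9, scipy 1.17.1 and pandas 2.3.3.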

Additional observations from a re-analysis of the deposited data

How the results depend on the processing

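Shares are of the genes tested in each fit, with counts of genes beside them. Genes at adjusted p without a fold threshold (2882 higher, 16.3%, and 3483 lower, 19.7%) stayed within 1.5 times of these counts with DESeq2, with its size factors, under both count filters, and with length or GC-content correction. With flow cell as a term 1873 genes (10.6%) were higher, and with only the flow cell of the Csi libraries 1725 (9.06%) were higher and 2202 (11.6%) lower. That flow cell holds only replicate 3 of siSMAD2/3/4, which the last fit assumes to vary like the Csi libraries. The group difference in the fit with the flow cell term rests on replicate 3 as well. In 1 fit with the other MDA-MB-231 groups 0.558% of 19551 genes were higher and 305 (1.56%) lower, with 36 higher (0.184%) and 71 lower DEGs (0.363%); the cause was not tested. The higher DEGs (173, 0.978%) also changed with other settings: 0.622% of 16879 genes with DESeq2, 75 genes (0.471% of 15915) with at least 10 counts in every library, 98 (0.514%) on the 1 flow cell, 0.786% of 13616 among protein-coding genes only and 8 (0.0452%) when tested against the threshold itself, which left 22 (0.124%) of the 164 lower DEGs. Each of these counts was over 1.5 times smaller than the main one. Leaving out 1 library gave 2361 to 2971 genes higher (13.1% to 16.2%) and 2981 to 3452 lower (16.4% to 18.9%), with 162 to 234 higher DEGs (0.896% to 1.28%) and 158 to 195 lower ones (0.869% to 1.08%), the highest count of higher DEGs being without Csi replicate 1. Of 216 genes examined singly, 146 lost their call in the fit of 4 groups, 6 with the flow cell term (SMAD7, TGFB1, SNAI2, CDH1, H3C2 and MT-ATP8) and 3 with DESeq2. The only reversal was MT-ATP8, at 0.01 with the flow cell term and 0.02 with 1 flow cell. Replicate numbers do not pair the libraries: deviations from the group means correlated, over all pairs of a Csi and a siSMAD2/3/4 library, by -0.0372 to 0.0383, and a replicate block gave 2852 genes higher and 3456 lower with 170 and 172 DEGs, and 3011 and 3242 with 174 and 154 DEGs with length correction. Across genes the log2 fold change had rho = 0.0923 with GC content and -0.12 with mean count. The median level of the higher DEGs, 0.833 CPM, limits their precision.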
